A study of Mus musculus with 19 samples.

Results

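Open chromatin was compared between forebrain progenitors of Foxc1 mutant and control mouse embryos that did not receive retinoic acid in the diet. The 8 libraries titled Control 1 to 4 and Foxc1Mutant 1 to 4 were used, of 19 libraries in the series. The other 11 come from embryos on a retinoic acid diet and enter only as values beside a result. All libraries are bulk ATAC-seq, in which a transposase cuts and tags accessible DNA, of Prom1-positive cells taken from the forebrain at embryonic day 14 with magnetic beads. The controls, 4 libraries, have the genotype label Foxc1 WT. Mutants 2, 3 and 4 have the label Foxc1 hith/LacZ, which joins a hypomorphic allele with an allele that carries a LacZ insertion. Mutant 1 is a mutant by its title, but its genotype label reads Foxc1 WT, so several results are also given without it. The treatment label of all 8 libraries is no diet. The labels do not say whether the libraries of a group come from separate embryos, litters or pools, and p-values measure no more than the spread among the samples at hand, which may be technical.

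Foxc1 encodes a forkhead transcription factor of the mesenchyme that forms the meninges, the membranes around the brain. Meningeal fibroblasts make retinoic acid, which enters neighbouring cells, binds nuclear receptors of the RAR and RXR families and acts on the genes they occupy. In the developing cortex, progenitors divide next to the ventricle and are kept as progenitors by Notch signalling and by factors such as Sox2 and Pax6. The series title names meningeal retinoic acid, Notch and Sox2, so genes of these pathways were followed here. Prom1 is a membrane protein at the apical surface of neural progenitors.

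The measured unit is the peak summit, the base where a peak of accessibility is highest. The authors deposited 49804 to 122591 summits per library, each with a score that is the -log10 of its q value. The groups did not differ in this number, with 98555 ± 22068 summits in controls and 95379 ± 30545 in mutants (SD, n = 4 each, two-sided exact permutation p = 0.857, smallest possible 0.0286). Read depth is unknown. Each library was cut to the same number of summits, taken from the top of the ranking and equal to the shortest list of the series, and summits within 200 bp of each other were chained into regions. This gave 37513 regions with summits from at least 2 of the 8 libraries. A further 10865 regions came from a lone library and were left out.

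At the level of the groups, no gene and no region passed a test, and the mutants fell into libraries 1 and 2, which resembled the controls, and libraries 3 and 4, which did not. The deposited scores differed along the same line. The median score was 14.8, 16.6, 18.1 and 17.5 in controls 1 to 4, 15.5 in mutant 1 and 18.4 in mutant 2, against 8.19 in mutant 3 and 6.44 in mutant 4. The score of the last summit kept was 24.5 to 53.7 in controls and mutants 1 and 2, 18.1 in mutant 3 and 5.42 in mutant 4. The part of these scores in the results below was not tested, and the labels name no batch or date. In bulk libraries, a shift in the share of a cell type and a change within its cells cannot be told apart.

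A few promoters carry the clearest differences in position or presence, and their sequences are shown first. They are RefSeq windows of build GRCm38.p6, from 250 bases before a transcription start to 50 bases after it, written 5′ to 3′ on the gene's strand. Capitals mark the stretch of the window that the region's summits span. The first 3 are from regions with a summit in every library of 1 group and none of the other. Pfkfb3 encodes a glycolysis regulator that makes fructose 2,6-bisphosphate, and its start had summits in the 4 controls alone, with that of control 1 just past the window (minus strand, chr2:11502041-11502340). H1f2 encodes a replication-dependent linker histone, and Arvcf encodes a catenin of cell junctions. Only the 4 mutants had summits in these windows (plus strand, chr13:23738557-23738856 and chr16:18392313-18392612). The last 2 show the 2 directions in which mutants 3 and 4 differed from the other 6 libraries. Atoh1, which encodes a proneural bHLH factor, had a promoter summit in mutants 3 and 4 alone (plus strand, chr6:64728875-64729174). Foxd1, which encodes a forkhead factor of meningeal and stromal cells, lacked one in those 2 libraries alone (plus strand, chr13:98353995-98354294). These 5 were picked after their values were seen. Presence and absence here refer to the summits kept from each library. Lower-ranked deposited summits were not counted.
Pfkfb3: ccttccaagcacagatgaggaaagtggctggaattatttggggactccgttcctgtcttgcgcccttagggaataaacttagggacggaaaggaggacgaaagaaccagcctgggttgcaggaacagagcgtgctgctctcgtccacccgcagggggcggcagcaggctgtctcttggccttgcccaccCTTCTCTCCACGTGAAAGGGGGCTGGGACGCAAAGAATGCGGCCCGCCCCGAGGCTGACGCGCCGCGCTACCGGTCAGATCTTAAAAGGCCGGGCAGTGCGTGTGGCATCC
H1f2: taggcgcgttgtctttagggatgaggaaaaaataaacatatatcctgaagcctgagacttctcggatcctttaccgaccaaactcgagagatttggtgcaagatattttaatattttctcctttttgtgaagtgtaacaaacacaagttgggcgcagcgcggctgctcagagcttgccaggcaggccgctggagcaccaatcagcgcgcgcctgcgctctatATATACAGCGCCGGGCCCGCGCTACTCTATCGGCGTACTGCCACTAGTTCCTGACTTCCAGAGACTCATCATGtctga
Arvcf: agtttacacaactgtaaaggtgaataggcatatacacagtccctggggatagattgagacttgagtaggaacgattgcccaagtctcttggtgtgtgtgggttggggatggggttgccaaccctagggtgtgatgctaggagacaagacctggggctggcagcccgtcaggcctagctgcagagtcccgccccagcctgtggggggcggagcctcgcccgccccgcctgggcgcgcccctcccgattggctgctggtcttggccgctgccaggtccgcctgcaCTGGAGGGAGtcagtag
Atoh1: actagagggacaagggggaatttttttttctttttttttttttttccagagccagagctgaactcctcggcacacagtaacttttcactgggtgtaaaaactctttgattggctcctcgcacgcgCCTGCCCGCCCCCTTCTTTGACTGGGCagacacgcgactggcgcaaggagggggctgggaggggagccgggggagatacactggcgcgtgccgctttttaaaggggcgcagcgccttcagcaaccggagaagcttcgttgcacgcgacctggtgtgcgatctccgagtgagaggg
Foxd1: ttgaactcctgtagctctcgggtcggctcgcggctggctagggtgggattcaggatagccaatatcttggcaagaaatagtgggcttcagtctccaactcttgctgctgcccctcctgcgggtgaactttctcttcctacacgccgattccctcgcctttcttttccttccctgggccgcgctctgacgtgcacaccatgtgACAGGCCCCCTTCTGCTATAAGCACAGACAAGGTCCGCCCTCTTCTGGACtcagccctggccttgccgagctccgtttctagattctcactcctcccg

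The windows share no single promoter element among those searched on both strands. The GC box GGGCGG is present in 4 of the 5, the CCAAT box in 4 of the 5, and neither TATAAA nor the forkhead core GTAAACA is present in any of them. Of all 32851 promoter windows, 35.7% hold GGGCGG, 37.4% CCAAT, 13.6% TATAAA and 3.65% GTAAACA. Of the 9886 windows that any of the 37513 regions overlaps, the shares are 70.6%, 42.1%, 5.40% and 2.06%.

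The first question was whether mutant libraries share their open regions with each other more than with controls. They did not beyond the spread between libraries. The Jaccard index of a pair of libraries, shared regions over regions occupied in either, averaged 0.713 within groups and 0.701 between groups, a difference of 0.0124 (one-sided exact permutation test over 35 splits, p = 0.371, smallest possible 0.0286). By the same exact permutation test, the difference was 0.0496 without mutant 1 (p = 0.114) and -0.0120 without mutants 3 and 4 (p = 0.800).

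Mutants 1 and 2 lay among the controls, and mutants 3 and 4 lay apart. Mutant 2 was closest to control 4, at 0.842. Mutant 1 was about equally close to control 4 (0.777), control 2 (0.776) and mutant 2 (0.775). Pairs of mutants 1 or 2 with a control reached 0.735 to 0.842, and the controls among themselves reached 0.714 to 0.838. Mutants 3 and 4 reached only 0.597 to 0.641 with the other 6 libraries, below every other pair. With each other they reached 0.726.

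**Figure D1:**
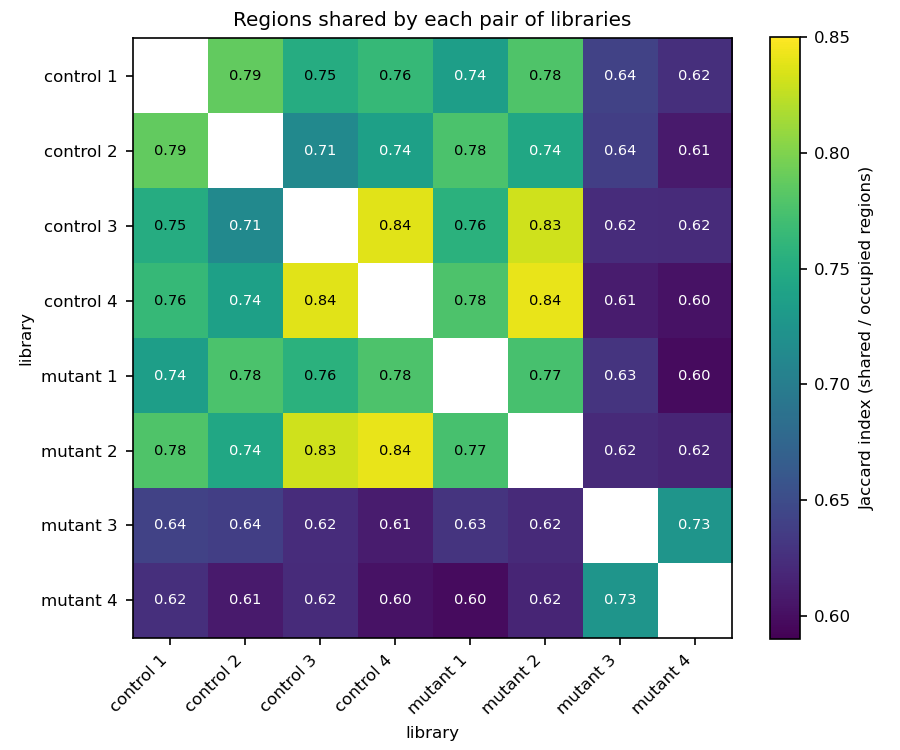
Jaccard index of matched regions for each pair of the 8 libraries, with both axes listing the libraries and colour giving the index. The rows of mutants 3 and 4 are dark (0.60 to 0.64) except where they meet each other (0.73), while mutants 1 and 2 sit among the controls.

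Most regions were open in most libraries. All 8 libraries had a summit in 15638 regions. Only 46 regions, 0.123% of the 37513, were occupied in every control but not in a mutant, and 25, or 0.0666%, had the reverse. A two-sided Fisher's exact test with Benjamini-Hochberg adjustment called no region, since 4 against 4 cannot go below p = 0.0286, which these 71 regions reach. Without mutant 1 the counts were 137 and 71, and without mutants 3 and 4 they were 112 and 163, where fewer libraries have to agree.

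**Figure D2:**
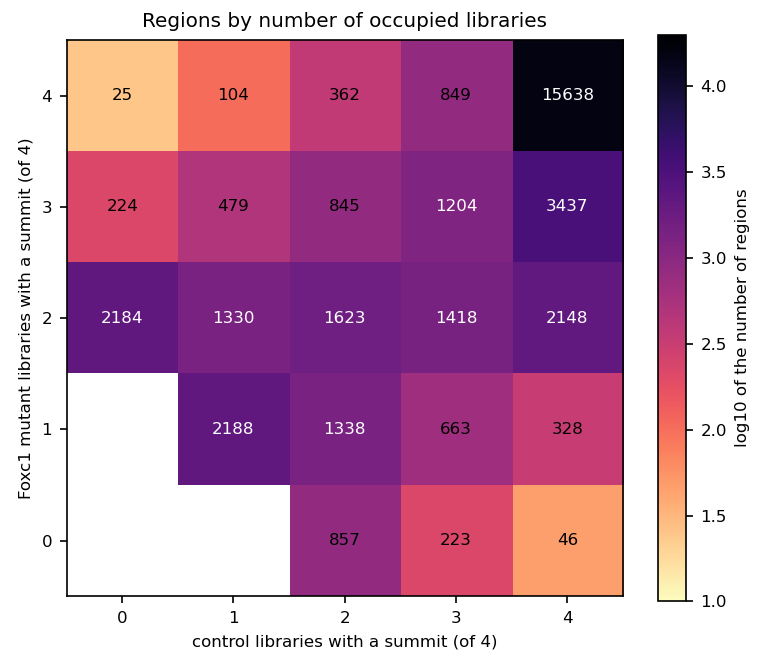
Number of regions by how many of the 4 controls (horizontal) and 4 mutants (vertical) had a matched summit, with colour on a log10 scale. The corner of regions open in all 8 libraries holds 15638, the corners that separate the groups hold 46 and 25, and the cells with 2 mutants and 0 or 4 controls hold 2184 and 2148.

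The separated regions lay mostly near the end of the ranked lists. A region's percentile is the rank of its best summit within the matched list of its library, with 100 the best. The regions of the controls had a median percentile of 14.8 and those of the mutants 23.0, and 33 of 46 and 10 of 25 lay below the 20th. Where a library lacked a matched summit, a lower-ranked summit was deposited in the same region in 70.7% of cases for the regions of the controls and in 72.0% for those of the mutants. All 4 libraries without a matched summit had such a lower-ranked one at 15 of the 46 and 16 of the 25 regions.

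Some of the best-ranked separated regions came in pairs near the same gene, with the summit at one site in controls and at another in mutants. At Pfkfb3, the controls had their summit 87, -61, -14 and -61 bases from the transcription start, counted downstream. In the mutants it lay at 579, 579, 672 and 693 bases, inside the gene. That the groups do not overlap here, or at the other paired sites, follows from how separated regions were chosen. At Pfkfb3, 492 bases separate the nearest summits. Both sites ranked high, at percentiles of 74.4 to 81.3 in controls and 85.3 to 90.2 in mutants. In browser coordinates the controls' summits span chr2:11502003-11502151 and the mutants' chr2:11501397-11501511.

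H1f2 showed the same form with the opposite sense. The controls' summits were 986, 974, 933 and 975 bases downstream of the start, past the 3′ end of this short gene, and the mutants' were at -2, 44, 44 and -28 bases, at the start itself. The gap was 889 bases, and percentiles were 72.0 to 79.2 in controls and 68.4 to 89.5 in mutants. That all 4 mutants took the same side is again the rule by which the regions were chosen, so it adds no separate evidence. H1f2 lies in a cluster of near-identical histone genes, and whether reads could be placed uniquely there was not tested.

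Near Enc1, which encodes an actin-binding protein of developing neurons, the 4 mutants had their summit at the same base, chr13:97256250. The controls had theirs at chr13:97256547 in 3 libraries and at chr13:97256621 in control 2. These sites lie outside the gene, 3210 bases (mutants) and 3544 bases (controls) from its end. The gap of 297 bases is the smallest of the 3. The files give 1 summit per peak and no peak width, so whether a broad peak or separate peaks lie behind these positions was not tested.

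**Figure D3:**
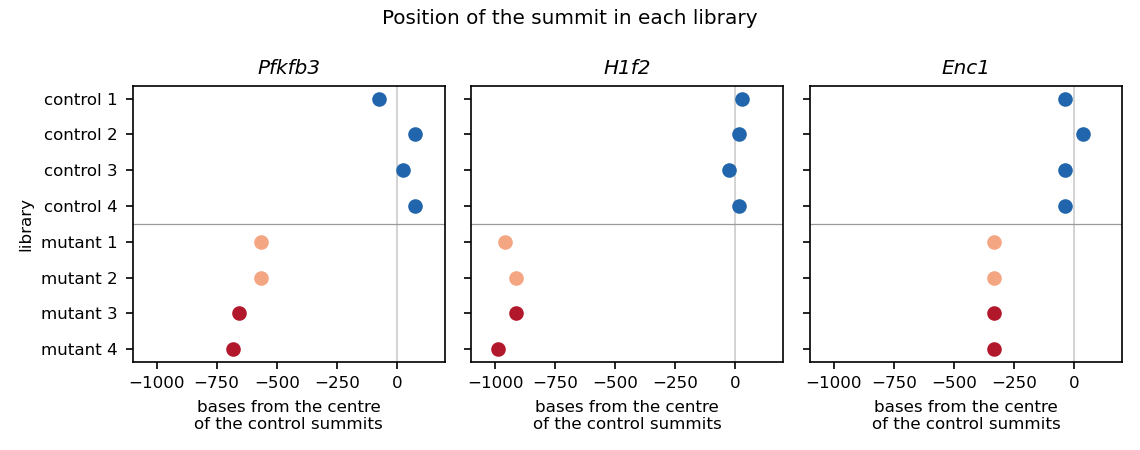
Position of the matched summit in each of the 8 libraries at Pfkfb3, H1f2 and Enc1, as bases from the centre of the 4 control summits in the direction of the chromosome. Controls (blue) lie near 0 and mutants 1 and 2 (light) and 3 and 4 (dark red) lie together to the left, with nearest gaps of 492, 889 and 297 bases.

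Of the other separated regions, the best ranked in controls lay 8071 bases from Dhx37, an RNA helicase gene, inside Adarb2, Clasp1 and Ltb4r2, and 82 bases from Fgl1. Their mean percentiles ran from 30.1 to 51.1. Within Meis2, a homeobox gene that responds to retinoic acid, the controls' region chr2:116020081-116020142 had percentiles of 32.9, 22.9, 24.6 and 31.2. A region 23689 bases from Neurod4, a proneural factor, and 1 that lies 84037 bases from Lhx8, a LIM homeobox factor of ventral forebrain neurons, were also limited to the controls, with mean percentiles of 11.7 and 8.61. Among the mutants, a region 64 bases from Ppp1r3b, a regulator of glycogen synthesis, had percentiles of 46.8, 37.9, 76.1 and 62.5. At the Arvcf start shown above they were 56.6, 42.3, 53.4 and 7.85. Here mutant 4 stood near the end of its list.

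For regions open in all 8 libraries, the percentile itself was compared with limma (trend and robust). None of 15638 was called, 0% in either direction, and 887 had an unadjusted p under 0.05, with a smallest adjusted p of 0.669. All mutants stood above all controls in 206 regions, 1.32%, and below in 213, 1.36%. The lowest p belonged to a region inside Itgb5, an integrin subunit, at chr16:33860137-33860180. Its percentiles were 28.4, 28.3, 37.6 and 40.2 in controls and 64.8, 61.6, 62.4 and 69.7 in mutants. That is 31.0 points higher in mutants (SE 7.77, limma adjusted p = 0.669), with all 4 mutants above all controls. In the other direction, a region inside Celsr1, a cadherin of planar cell polarity, had 91.3, 80.5, 88.2 and 84.5 in controls and 71.4, 74.5, 60.8 and 55.2 in mutants. It was lower by 20.7 points on average (difference -20.7, SE 5.51, adjusted p = 0.669). Near the start of Rfxank, a regulator of MHC class II genes, controls had 93.6, 91.2, 87.5 and 90.9 and mutants 81.6, 86.9, 74.4 and 76.8. The other named regions lay inside Susd1, Runx2, Tmem132b and Fbrsl1, 4 bases from Sbspon, and on chromosome 17 beyond 100 kb of any gene end (chr17:49231420-49231533). The last had 10.6, 10.2, 10.5 and 4.80 in controls and 40.5, 26.2, 63.0 and 55.0 in mutants. A region inside Prkcz, an atypical protein kinase C, had 65.2, 65.1, 68.9 and 63.0 in controls, 50.9 and 51.0 in mutants 1 and 2, and 9.9997 and 18.1 in mutants 3 and 4.

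Summits were next counted per gene, each given to the closest protein-coding gene, by its nearer end and up to 100 kb away. Of 11089 genes that averaged 1 summit or more, 4372 had the same count in all 8 libraries and 6717 were tested with limma on log2(summits + 0.5). None was called higher or lower, 0% in both directions. At an unadjusted p under 0.05 there were 385, of which 124 were higher and 261 lower in mutants. The smallest adjusted p was 0.633. All mutants lay above all controls at 12 genes, 0.179%, and below at 19, 0.283%.

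Foxc1 itself had 1, 2, 1 and 1 summits in controls and 2, 1, 2 and 2 in mutants. Accessibility near the gene does not check the genotype. The difference was 0.37 on the log2(summits + 0.5) scale (SE 0.28, limma adjusted p = 0.668). Prom1, the marker used to collect the cells, had 1 summit in each of the 8 libraries.

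Lef1, which encodes a nuclear effector of Wnt signalling, had the lowest p of all genes. It had 1, 2, 1 and 1 summits in controls and 4, 2, 5 and 6 in mutants. Mutant 2 equalled control 2, and the other 3 mutants lay above every control. The log2 difference was 1.39 (SE 0.29, limma adjusted p = 0.633). Without mutant 2 the limma adjusted p was 0.0397, the call then resting on mutants 1, 3 and 4. Of these, mutant 1 has the genotype label Foxc1 WT. With 1 library left out in turn, mutant 1 among them, the difference ran from 1.21 to 1.67. The difference fell to 0.48 with 49804 summits per library and to 0.16 with all deposited summits. Olig1, a bHLH factor of ventral progenitors and oligodendrocyte precursors, had 2, 2, 3 and 3 in controls and 4, 4, 7 and 5 in mutants. The groups did not overlap (log2 difference 0.86, SE 0.21, limma adjusted p = 0.633). With 49804 summits per library the difference at Olig1 was -0.0516, and with all summits -0.0853.

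The groups did not overlap at Zfp704, Bcorl1 and Zswim6 either. Zfp704, a zinc finger gene, had 5 summits in each control and 8, 7, 6 and 8 in mutants, and its difference of 0.49 was -0.28 with all summits. Bcorl1, a corepressor gene, had 1 in each control and 2 in each mutant. Zswim6 had 5, 6, 6 and 6 in controls and 7, 7, 12 and 14 in mutants, so most of its difference of 0.69 (SE 0.21) came from mutants 3 and 4. Cdh11, a cadherin gene, had 5, 4, 4 and 4 against 6, 5, 9 and 9, with mutant 2 equal to control 1. The remaining genes among the 10 smallest p, Adgrb3, Klhl2, Mdfic and Tanc1, had log2 differences of 0.66, 0.89, 0.53 and 0.64. Sox5, picked on its values, which encodes an SRY-related factor of deep-layer neurons, is listed at 0 in all controls and had 1, 1, 3 and 3 in mutants.

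Fewer summits in all mutants were seen at Senp1, a SUMO protease gene, with 4 in each control and 3, 2, 2 and 2 in mutants (log2 difference -0.73, SE 0.18, limma adjusted p = 0.633). Lhx8 had 3, 2, 2 and 2 in controls and 1 in each mutant (-0.86, SE 0.23), but its difference was 0.27 with 49804 summits per library and 0.10 with all summits. Slc19a1, which encodes the reduced folate carrier, had 2, 2, 3 and 2 against 1 in each mutant. Ksr1, a scaffold of the MAP kinase cascade, had 5, 5, 4 and 4 against 3, 3, 2 and 1. Loxhd1, Acoxl, Chd6, Mrpl45, Tmem220 and Rabif, the rest of the 10 smallest p in this direction, had differences from -1.65 (Loxhd1) to -0.79 (Chd6). Neurod4 had 3, 3, 4 and 4 in controls and 2, 3, 2 and 2 in mutants, with mutant 2 at the level of controls 1 and 2 (-0.55, SE 0.19, limma adjusted p = 0.633).

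At the progenitor factors Sox2 and Pax6, mutants 1 and 2 and mutants 3 and 4 lay apart. Sox2 had 8, 6, 5 and 7 summits in controls and 5, 7, 10 and 9 in mutants. Mutants 1 and 2 lay inside the range of the controls and mutants 3 and 4 above it. Pax6 had 9, 8, 8 and 7 in controls, 8 and 6 in mutants 1 and 2, and 12 and 11 in mutants 3 and 4. Neither difference passed, at 0.21 (SE 0.21) for Sox2 and 0.16 (SE 0.19) for Pax6. Without mutants 3 and 4 both turned to -0.11 and -0.19. Of 26 tested genes of the neural progenitor list, 17 were higher and 9 lower in mutants, none passed limma, and the median was 0.06, beside -0.03 over all genes tested.

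In the Notch pathway, 22 of 31 genes were tested, 11 were higher and 11 lower, none passed, and the median was 0. For the ligands, Jag1 had 3, 4, 4 and 4 in controls, 4 and 4 in mutants 1 and 2, and 6 and 7 in mutants 3 and 4, while Dll1 stayed at 4 or 5 in all 8. Of the receptors, Notch1 had 5, 6, 6 and 6 against 7, 6, 6 and 4, and Notch2 had 7, 8, 5 and 6 against 7, 7, 11 and 8. Notch3, a receptor prominent in mural cells of vessels, had 3, 4, 2 and 3 in controls and 3 and 4 in mutants 1 and 2, and none in mutants 3 and 4. Rbpj, the DNA-binding effector of the pathway, had 4, 3, 3 and 4 against 4, 5, 4 and 5. Its target Hes1, a bHLH repressor that maintains progenitors, had 6, 7, 4 and 5 in controls, 6 and 5 in mutants 1 and 2, and 9 in each of mutants 3 and 4. Hes5, another target, had 4, 4, 4 and 5 against 5, 4, 5 and 5.

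For retinoic acid signalling, 16 of 26 genes were tested, 9 were higher, 6 lower and 1 equal, none passed, and the median was 0.21. Rara, a nuclear receptor gene, had 3, 4, 3 and 3 summits in controls and 4, 3, 3 and 3 in mutants, a difference of 0. Rarb, itself a known target of retinoic acid, had 1, 2, 3 and 3 against 3, 3, 3 and 2. Aldh1a2, whose enzyme makes retinoic acid, had 1 in each control and 2, 1, 1 and 0 in mutants. Crabp2, a carrier of retinoic acid, had 1 in all 8 libraries. Cyp26b1, whose enzyme degrades retinoic acid, had 1 in all but mutant 4, which had 0. The receptor partner Rxra had 5, 6, 3 and 3 in controls, 5 and 3 in mutants 1 and 2, and 1 in each of mutants 3 and 4. Stra6, a retinol transporter gene, had 4, 4, 3 and 4, then 4 and 3, then 1 and 1. Meis2 went the other way, with 12, 10, 11 and 11, then 10 and 11, then 17 and 15.

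Neurogenic genes did not pass either. Neurog2, the proneural factor of cortical progenitors, had 4 in each control and in mutants 1 and 2, and 5 and 6 in mutants 3 and 4. Eomes, which marks intermediate progenitors, had 2, 2, 4 and 3 against 2, 4, 1 and 4, and Tbr1, a factor of early cortical neurons, had 1, 2, 3 and 3 against 2, 3, 5 and 3.

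**Figure D4:**
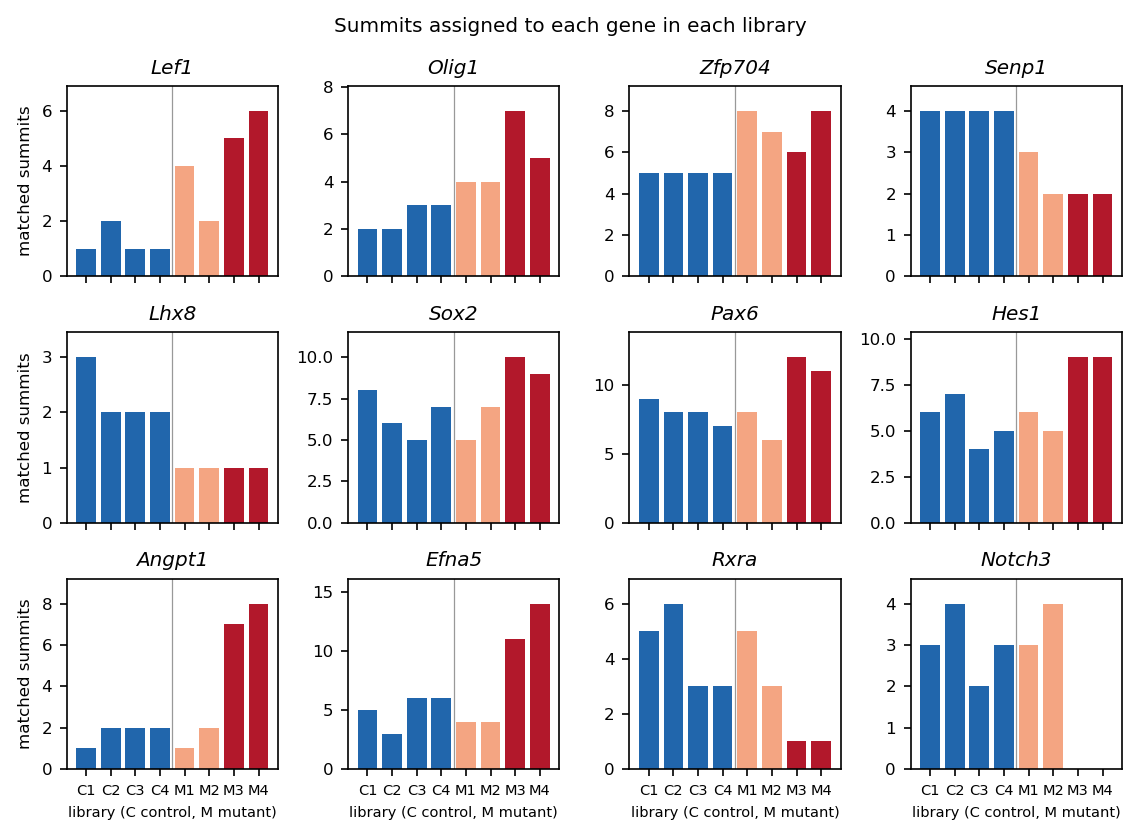
Matched summits assigned to 12 genes in each library (bars; blue controls C1 to C4, light mutants M1 and M2, dark red mutants M3 and M4), with vertical axes that start at 0. At Olig1, Zfp704, Senp1 and Lhx8 all 4 mutants lie on 1 side of the controls. At Sox2, Hes1, Angpt1, Efna5, Rxra and Notch3 only M3 and M4 leave the range of the controls. At Pax6, M3 and M4 lie above that range and M2 below it.

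Since the mutants diverged, each was also set against the range of the 4 controls. Of the 6717 tested genes, mutant 1 lay above it at 422 and below it at 359, and mutant 2 at 262 and 208. Mutant 3 lay above at 1194 and below at 1489, and mutant 4 at 1374 and 1617. Kctd1 showed both kinds of mutant, with 5, 4, 4 and 4 summits in controls, 2 and 1 in mutants 1 and 2, and 9 and 10 in mutants 3 and 4. With all 8 libraries its log2 difference was -0.11.

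Mutants 3 and 4 shared what set them apart. Regions with a summit in these 2 libraries alone numbered 1734, 4.62% of all, and regions missing in them alone numbered 1799, 4.8%. For the other 27 pairs of libraries the first count ran from 40 to 542, with a median of 100, and the second from 21 to 164, with a median of 51. The 542 belonged to control 2 and mutant 1, the mutant labelled Foxc1 WT, while mutants 1 and 2 had 97. At the gene level both libraries lay above the other 6 at 571 genes, 8.5% of those tested, and below at 824, 12.3%. The other pairs gave 12 to 139 and 9 to 64. These libraries were singled out because they diverge, so these values are a description and were not tested.

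**Figure D5:**
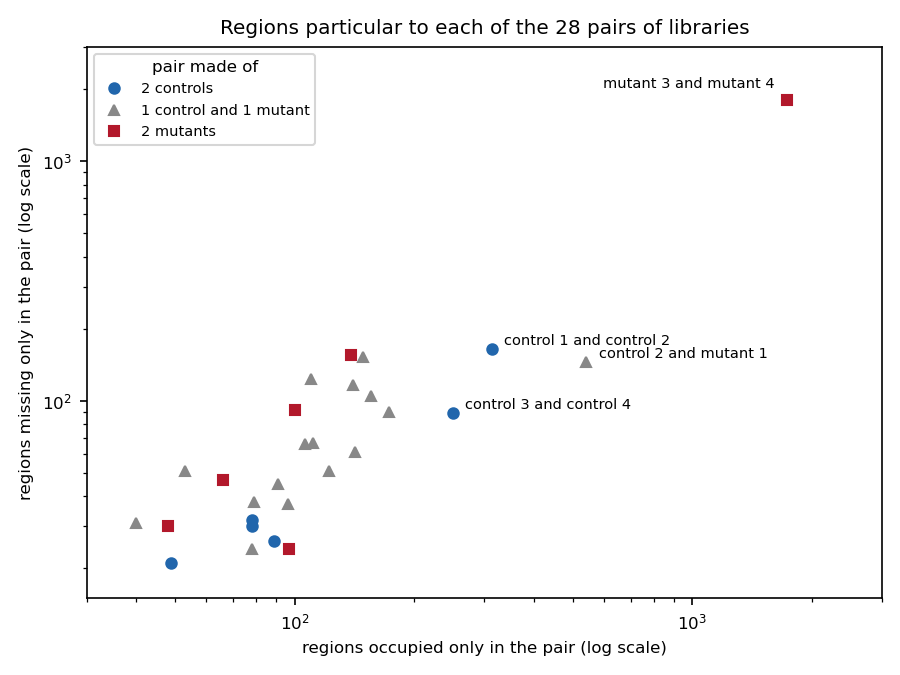
For each of the 28 pairs of libraries, regions occupied only in the pair (horizontal, log scale) against regions missing only in the pair (vertical, log scale). The pair of mutants 3 and 4 stands alone at 1734 and 1799, while the other 27 pairs lie at or below 542 and 164.

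Both sets held fewer regions close to a gene end than all regions did, and they differed in the share far from genes. Of the regions in mutants 3 and 4 alone, 34.5% were beyond 100 kb of any gene end and 11.6% within 1 kb, against 18.6% and 29.1% of all regions. Of those missing in them, 8.6% were beyond 100 kb, 16.8% within 1 kb, and 30.1% at 1 to 10 kb from a gene end, against 16.9% of all for the last. By chromosome, the missing share ran from 1.67% of regions on chromosome X and 2.77% on chromosome 3 to 7.69% on chromosome 7 and 8.05% on chromosome 11. Across the 19 chromosomes with promoter windows and regions, the missing share followed the median GC content of the promoters (Pearson r = 0.74, Spearman rho = 0.84), and the gained share ran against it (r = -0.66, rho = -0.64). The chromosomes share the same 8 libraries, so this is a description. The promoter windows that the regions themselves overlap had a median GC content of 60.3% for the missing set (207 windows). For the gained set it was 58.7% (91 windows), and for all regions 62.7%. Only 11.7% of the missing and 11.6% of the gained regions lie within 1 kb of a start site, so these windows cover a small part of the sets. The part of GC content in the split was not tested.

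The regions lost from mutants 3 and 4 were often still called at a lower rank. In mutant 3, 90.2% of the 1799 had a deposited summit outside the matched list, and in mutant 4, 44.6%. Mutant 4 has a shorter deposited list, with 49804 summits against 108407 in mutant 3. Over all regions, 94.5% had a deposited summit in mutant 3 and 81.0% in mutant 4. Of the 1734 gained regions, 61.1% to 70.3% had a lower-ranked summit in the other 6 libraries. The libraries on the retinoic acid diet had matched summits in 16.6% to 25.8% of the gained regions in controls and 10.6% to 42.6% in mutants. For the lost regions the ranges were 73.7% to 83.0% and 44.0% to 77.8%. Over all regions, the matched shares in the diet libraries were 68.7% to 74.1% in controls and 60.03% to 71.5% in mutants.

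More summits in mutants 3 and 4 than in any other library were seen with a gap of 5 at Angpt1, Bach2, Efna5, Gpd2, Mef2c and Zswim6. Angpt1, a ligand of the endothelial receptor Tek, had 1, 2, 2 and 2 summits in controls, 1 and 2 in mutants 1 and 2, and 7 and 8 in mutants 3 and 4. Efna5, an ephrin that guides axons, had 5, 3, 6 and 6, then 4 and 4, then 11 and 14. Mef2c, a transcription factor of neurons, had 15, 12, 15 and 16, then 12 and 16, then 21 and 21. Gli3, the Hedgehog-regulated repressor that patterns the cortex, had 10, 9, 9 and 8, then 9 and 9, then 15 and 13. Meis1, Tcf4 and Tle4 stood apart by at least 3 summits as well.

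Fewer summits in mutants 3 and 4 were seen at Igsf21, a synaptic adhesion gene, with 10, 10, 10 and 11, then 10 and 12, then 3 and 5. Vav2, an exchange factor for small GTPases, had 7, 5, 5 and 6, then 5 and 5, then 1 and 1. Sufu, a negative regulator of Gli factors, had 5, 4, 5 and 6, then 5 and 6, then 2 and 2. Ccnd2, a cyclin of cortical progenitors, had 6, 6, 5 and 5, then 5 and 5, then 3 and 2. Of the neural progenitor list, 5 of 26 tested genes lay above the other 6 libraries and 2 below, and of the retinoic acid list 3 of 16 lay above and 3 below, beside 8.5% and 12.3% of all genes tested.

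Markers of other cell types had summits in all 8 libraries. The vascular and microglial lists had fewer in mutants 3 and 4. The cell cycle list, the cortical hem and choroid plexus list, and all genes summed also had fewer. The size of the drop differed between lists. Summed over the list, the 15 endothelial genes had 15 to 19 summits in controls, 20 and 23 in mutants 1 and 2, and 14 and 12 in mutants 3 and 4. The 12 mural genes had 10 to 12, then 9 and 10, then 5 and 4, and the 14 microglia and macrophage genes had 11 to 14, then 14 and 13, then 8 and 7. The 18 meningeal fibroblast genes had 21 to 24 in controls and 22 to 29 in mutants. The cortical hem and choroid plexus list had 30 to 35, then 35 and 31, then 26 and 19. The cell cycle list had 50 to 54, then 51 and 50, then 47 and 47. All protein-coding genes together had 23787 to 24736, then 24728 and 24033, then 23004 and 22996. No summit was assigned in any of the 8 libraries to Tek, Tie1 or Cldn5 (endothelial), Acta2 or Tagln (mural), Cx3cr1 or Tyrobp (microglia), Col3a1 or Lum (fibroblasts), or the globin genes. Other defining markers had summits. Cdh5, an endothelial cadherin, had 3, 2, 3 and 3 in controls and 3, 3, 2 and 2 in mutants, and Erg, an endothelial transcription factor, had 3, 3, 4 and 4 against 3, 4, 1 and 1. Emcn, also of the endothelial list, went the other way, with 2, 1, 2 and 0 against 1, 1, 3 and 3. Of 7 tested endothelial genes, mutants 3 and 4 both lay above the other 6 libraries at 1 and below at 2, beside 8.5% and 12.3% of all genes tested. Of 3 tested mural genes they lay above at 0 and below at 2, with 9 of the 12 mural genes under the mean of 1 summit. Of 2 tested microglia and macrophage genes they lay above at 0 and below at 0. Cspg4, a proteoglycan of pericytes and oligodendrocyte precursors, had 3 in each control and in mutants 1 and 2, and 1 in each of mutants 3 and 4. Ptprc, a leukocyte phosphatase, had 3 in all 8. Per gene, the libraries ranged from 0.80 to 1.53 summits for the endothelial list and from 1.17 to 1.61 for the fibroblast list, beside 1.05 to 1.13 over all 21887 protein-coding genes and 4.61 to 5.54 for the neural progenitor list. The neural progenitor list had 129 to 136 summits in controls, 132 and 131 in mutants 1 and 2, and 155 and 152 in mutants 3 and 4. The part of cell composition in the split was not tested. Summits on chromosome Y numbered 6 in control 1 and 0 in the other libraries.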

How the data were processed

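ATAC-seq summit lists of 8 libraries were used, 4 per group, grouped by title. The authors made 1 list per library. Per the submitters' processing notes, BWA, MACS2, Signac and DiffBind were used with mm10 and GRCm38, without versions. The deposited score of a summit is a -log10 q value, with a minimum near 1.30, the value of a q of 0.05. Scores ranked summits within a library and were not compared as signal. Peak widths and reads were not used here.

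Each library was cut to its best-scoring summits, as many as the shortest list of the series holds. Summits within 200 bp were chained into regions, kept with at least 2 libraries. Summits were assigned to the nearest end of a protein-coding gene within 100 kb, from a RefSeq table of GRCm38.p6. Promoter windows came from RefSeq (GRCm38.p6), with none on chromosome 18. Genes averaging at least 1 summit, with unequal counts, were fitted with limma 3.58.1 (trend, robust) in R 4.3.3 on log2(summits + 0.5). Percentiles of regions present in all 8 libraries were fitted likewise. Presence was compared by Fisher's exact test, library values by exact permutation. P-values were adjusted by Benjamini-Hochberg over all features, with a threshold of 0.05. The code of the fits was checked on simulated data, which does not say how large a difference these libraries could show.

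The text names the 10 genes with the smallest p in each direction, a list of pathway genes, and the best-ranked separated and shared regions, with others marked as picked on their values. Members and the 17 gene lists were chosen with earlier results of these data known. Alternatives changed the list length, chaining distance, gene assignment, pseudocount, filters, variance model, libraries and pairing. A gene that the naming rule selects is not reported here.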

Additional observations from a re-analysis of the deposited data

Results flagged for a closer look

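The number of deposited summits in the mutants had mutant 4 far from the rest. It had 49804, and the other 3 had 108298, 108407 and 115007, so the gap took up 0.897 of the range, above Dixon's 95% limit for 4 samples. In total, 29 of 124 groups of 4 values had a library apart by this measure. Of the 29, 27 are summit counts of named genes in which 3 libraries were equal and 1 differed. The gap then takes up all of the range (value 1) whatever its size. The rate of about 1 in 20 that the limit implies is for continuous values and does not apply to such tied counts. In controls they were Lef1, Adgrb3, Cdh11, Klhl2, Tanc1, Zswim6, Loxhd1, Chd6, Lhx8, Rabif, Slc19a1, Foxc1, Notch1, Dll1, Jag1, Hes5 and Rara. In mutants they were Mdfic, Senp1, Acoxl, Foxc1, Hes5, Hey1, Rara, Rarb, Cyp26b1 and Neurod4. The region at chr17:49231420-49231533 had control 4 at percentile 4.80 and the other controls at 10.2 to 10.6, a gap of 0.925 of the range.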

How the results depend on the processing

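No alternative called a region by presence or by percentile. Genes called rose from 0 to 1 with all deposited summits (Gm51598), 10 with gene ends within 10 kb only, 8 with genes alike in all libraries kept (each with no spread within groups, Bcorl1 among them at adjusted p = 6.2e-06) and, chosen after seeing the data, 3 without mutants 3 and 4 (Kctd1, Myo3b and Rbpms), where the libraries left out were picked on these values and the mutant arm is 2 libraries, 1 of them labelled Foxc1 WT. Leaving out 1 library gave 0 to 1, the 1 being Lef1 without mutant 2 (difference 1.67). Regions of all controls and no mutant numbered 20, 95 and 99 with a matched list 50% as long, 49804 summits and all summits, 62 to 245 with 1 library left out, most without mutant 2, and 112 without mutants 3 and 4. Those of all mutants and no control numbered 13, 41 and 45, then 43 to 163, and 163. The difference in Jaccard index was -0.00846 with all summits, -0.00806 to 0.0601 with 1 library left out, and -0.0120 without mutants 3 and 4. The difference in deposited summits (mutant minus control, -3176) ran from -10163 to 12016 and was 13098 without mutants 3 and 4. That in the share within 1 kb of a gene end, 0.21 points, was -1.32 with the shorter list and ran from -0.61 to 0.98. None of these library-level differences passed.

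Of 39 named genes with a value, 18 kept their sign under each alternative that gave them a value, 18 to 22 per gene. With 49804 summits the sign turned at Olig1 (-0.0516), Lhx8 (0.27), Rabif (0.0906), Notch1 (0.27), Hey1 (-0.12), Rarb (-0.25), Aldh1a2 (0.47) and Eomes (0.34). With all summits it turned at Olig1 (-0.0853), Zfp704 (-0.28), Tanc1 (-0.17), Lhx8 (0.10), Foxc1 (-0.12), Dll1 (-0.0248), Hey1 (-0.18), Rarb (-0.37) and Aldh1a2 (0.0063). With the shorter list it turned at Chd6 (0.18) and Hes5 (-0.0278), with gene bodies at Pax6 (-0.0906), and with ends within 10 kb at Notch1 (0.24). Without mutants 3 and 4 it turned at Sox2 (-0.11), Pax6 (-0.19), Notch1 (0.16), Dll1 (-0.0724), Aldh1a2 (0.37), Meis2 (-0.0629) and Eomes (0.0906). Without mutant 4 it turned at Notch1 (0.13) and Aldh1a2 (0.25), and Eomes ran from -0.30 to 0.23 with 1 library left out. The cause was not tested.

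Whether the title numbers pair the libraries could not be decided. Deviations of same-numbered libraries correlated at -0.06, -0.14, -0.01 and -0.06, and those of other pairs ran from -0.09 to 0.14. With the replicate block, limma called 0 genes and 0 regions, and the differences in deposited summits (-3176) and near-end share (0.21) were as before (sign-flip permutation p = 0.875 for both, smallest 0.125). Read depth is unknown, so no limit from counts could be given.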
